A study of Mus musculus with 6 samples.

Results

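Collagen genes and the genes that modify, fold, trim and cross-link their products were compared between RNA-seq libraries of 2 mouse glioblastoma (GBM) neurosphere lines, one labelled ATRX knockout (ATRX KO, line code C54B) and one ATRX wild type (ATRX WT, line code C39E), with 3 libraries each. The members were all symbols of the form Col, number, a, number in the authors' table, together with 17 named processing genes. The table held 29 such collagen genes and 16 of the processing genes, 45 of 13069 genes in all. Leprel1 was not matched under that symbol, and P3h2, of which RefSeq gives Leprel1 as a synonym, is described with the further pathway genes below. The label fitted the members only in part, since 6 fibril-associated collagens, 3 chains of collagen VI and 6 collagens of other classes also match the symbol pattern.

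According to the labels, both lines came from tumours raised in newborn immune-competent mice, of the C57BL/6 or the FVB strain, by Sleeping Beauty transposon plasmids delivered to the brain ventricles. Both genotypes carried a short hairpin against p53 and overexpressed NRAS, and a short hairpin against ATRX was the plasmid that differed, although the same libraries are also labelled as a knockout. The strain of each line is not given. Spheres were kept in serum-free neural stem cell medium with FGF and EGF. Each genotype is represented by 1 line code, which means that an effect of ATRX and a difference between lines cannot be told apart, and every p-value below measures the spread between libraries of a line, which may be technical.

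Collagens are secreted proteins of 3 chains wound into a triple helix. Fibrillar collagens form the tensile fibrils of connective tissue, collagen IV forms the sheet of basement membranes, collagen VI forms beaded filaments at the cell surface, and fibril-associated collagens (FACIT) decorate fibrils. In the endoplasmic reticulum prolyl and lysyl hydroxylases modify the chains and the chaperone encoded by Serpinh1, HSP47, binds the folded helix, after which proteases trim the ends outside the cell and lysyl oxidases cross-link the fibrils. In normal brain most fibrillar collagen is found in meninges and around vessels rather than in the neural tissue itself.

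The promoter sequences shown are those of Col3a1, the member with the largest rise, of Serpinh1, the member with the highest level in ATRX KO, and of the neighbouring genes Col4a5 and Col4a6, which moved in opposite directions. RefSeq windows on GRCm38.p6, from 250 bases before to 50 after the start, were matched for 33 of the 45 members. Each stretch is the 125 bases before the furthest upstream start that RefSeq or GENCODE M21 gives, 5′ to 3′ on the strand of the gene. They lie at chr1:45311413-45311537 (plus strand), chr7:99353240-99353364 (minus strand), chrX:141475260-141475384 (plus strand) and chrX:141474077-141474201 (minus strand). Capitals mark TATAAA, the TATA box, and GGGCGG, the GC box, on either strand, the latter as CCGCCC on the reverse strand.
Col3a1: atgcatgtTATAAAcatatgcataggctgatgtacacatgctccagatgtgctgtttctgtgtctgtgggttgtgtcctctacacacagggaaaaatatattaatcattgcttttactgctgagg
Serpinh1: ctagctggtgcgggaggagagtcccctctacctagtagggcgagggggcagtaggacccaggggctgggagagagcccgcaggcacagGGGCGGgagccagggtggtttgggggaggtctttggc
Col4a5: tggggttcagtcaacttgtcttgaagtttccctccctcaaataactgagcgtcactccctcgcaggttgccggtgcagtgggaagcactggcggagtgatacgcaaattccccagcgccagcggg
Col4a6: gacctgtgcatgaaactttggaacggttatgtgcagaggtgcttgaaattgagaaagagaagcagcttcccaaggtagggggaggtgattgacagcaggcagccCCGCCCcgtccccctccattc
The letters TATAAA were found in the Col3a1 stretch, near the end that lies furthest from the start. A GC box was found in the Serpinh1 stretch and, reversed, in the Col4a6 stretch, and none of the searched motifs in the Col4a5 stretch. Over the whole windows, searched on both strands, the GC box occurred in 26 of 33 members (78.8%) against 66.3% of the 9945 genes of the table with a window. The TATA box occurred in 5 members (15.2%) against 6.58%, and CCAAT, the CCAAT box, in 10 (30.3%) against 38.9%. Matches of different motifs that share bases were each counted, and a match describes the letters only. No window was matched for Col1a1, Col2a1, Col5a2, Col9a3, Col12a1, Col22a1, Plod2, Bmp1, Lox, Loxl1, Loxl2 and Loxl3.

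Values are log2 RPKM, the log2 of reads divided by gene length in kilobases and by sequencing depth, and libraries are listed as replicates 1 to 3. A positive log2 fold change means a higher level in ATRX KO. Rises and falls are genes with an adjusted p below 0.05 in limma over 12201 genes that reached log2 RPKM 0 in at least 3 libraries. Whole reads could be recovered from the deposited values, 22177228 to 32477269 per ATRX KO library and 34966108 to 38039847 per ATRX WT library. Atrx was lower in ATRX KO but not absent, at 14.1, 16.6 and 17.1 RPKM in ATRX KO and 22.3, 22.7 and 21.6 RPKM in ATRX WT (log2 fold change -0.48, SE 0.068, adjusted p = 0.00013). Of all tested genes 89.5% passed, 43.6% rising and 45.9% falling, so a call alone says little about any member. The libraries of a line were close, with a median SD over all tested genes of 0.065 in ATRX KO and 0.043 in ATRX WT (log2), so small differences could pass.

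Most of the collagen and processing genes were higher in ATRX KO, many of them from near absence. Of the 45 members 36 were tested, of which 28 rose, 6 fell and 2 gave no call, and the median log2 fold change was 2.38, where that of all tested genes was -0.02. The filter kept many members through ATRX KO alone, since the mean was log2 RPKM 0 or more for 34 of the 36 there and for 26 in ATRX WT. The 23 tested collagens gave 17 rises and 5 falls with a median of 3.99, and the 13 tested processing genes 11 rises and 1 fall with a median of 1.66. The ATRX WT mean reached log2 RPKM 0 for 14 of the 23 collagens, so their median includes many rises from near absence. Among the 24 members at that level in both groups, 18 rose, 4 fell and 2 gave no call, where 45.3% of all such genes rose and 42.4% fell. Of these 24, the 12 collagens gave 8 rises, 3 falls and 1 without a call, and the 12 processing genes 10, 1 and 1. The 9 members under the filter were Col1a2, Col2a1, Col11a2, Col20a1, Col22a1, Col8a2, P4ha3, Lox and Loxl4. With no filter, 33 members rose, 8 fell and 4 gave no call, where 42.5% and 47% of all genes did. The ATRX KO values lay wholly above the ATRX WT values for 33 members, wholly below for 8, and overlapped for 4, while 90.5% of all genes did not overlap.

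**Figure D1:**
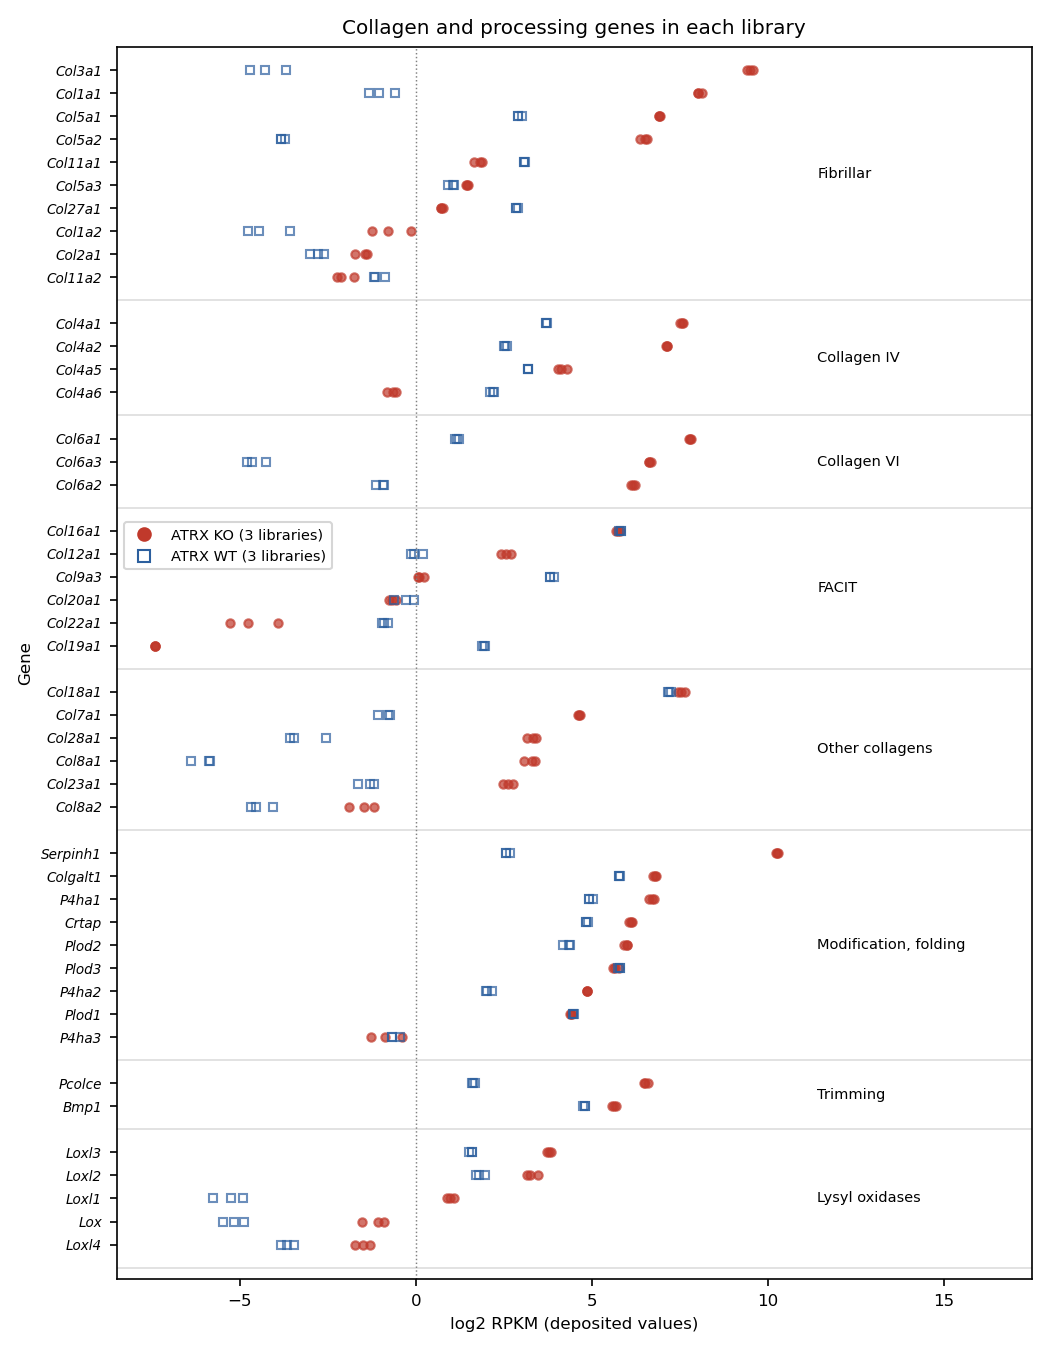
Deposited log2 RPKM of the 45 collagen and processing genes, grouped by role, in each ATRX KO library (filled circles) and each ATRX WT library (open squares). Col3a1, Col5a2 and Col6a3 lie below -3 in ATRX WT and above 6 in ATRX KO, whereas Col1a2 stays below 0 in all 6 libraries.

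Markers of several cell types also differed between the lines, in both directions. Of all tested genes 43.6% rose and 45.9% fell, the shares to set beside the marker counts below. Of the 13 fibroblast, mesenchymal and leptomeningeal markers 11 were tested and rose, but the ATRX WT mean was log2 RPKM 0 or more for 4 of them, so most passed the filter through ATRX KO alone. Thy1, the other one in the table, was under the filter and lower in ATRX KO, with 19, 29 and 31 reads in the ATRX KO libraries and 67, 90 and 66 in those of ATRX WT. The 12 summed to 290.5 to 303 RPKM in ATRX KO against 53.3 to 56.9 RPKM in ATRX WT. The 11 neural stem cell and glioma markers in the table, of 13 listed, summed to 117 to 127 RPKM in ATRX KO against 3361 to 3429 RPKM in ATRX WT, with 9 falls and 2 rises. Fabp7, a radial glia gene, carried most of that ATRX WT sum, and without it the sums were 117 to 127 RPKM and 646 to 651 RPKM. Olig1, an oligodendrocyte-lineage and glioma marker, and Dcx, a neuroblast marker, had 0 reads in ATRX KO, and Olig2 had 2. The glioma markers that rose were Pdgfra (mean 31.5 RPKM in ATRX KO and 3.41 RPKM in ATRX WT) and Cspg4 (10.5 and 2.52 RPKM). Of the pericyte list 4 of 5 tested genes rose, and the gene that fell was Rgs5, a defining pericyte marker, with 3, 2 and 1 reads in the ATRX KO libraries and 1303, 1406 and 1372 in those of ATRX WT. That list summed to 68.7 to 74.1 RPKM in ATRX KO against 24.1 to 24.2 RPKM in ATRX WT, and without Pdgfrb to 31.1 to 33.7 RPKM and 23.9 to 24.1 RPKM. Pdgfrb is also counted in the fibroblast list and Cspg4 in the glioma list. The endothelial list had 3 of 7 genes in the table and summed to 14.4 to 16.4 RPKM in ATRX KO against 0.422 to 0.679 RPKM in ATRX WT. Of these Cdh5 and Emcn rose, and Kdr was under the filter with values that overlapped. Pecam1, Tie1, Tek and Cldn5 were not in the table. The microglia and macrophage list had 2 of 9, Cd68 and Tmem119, with 30.6 to 35.1 RPKM in ATRX KO against 5.52 to 6.28 RPKM in ATRX WT. Its other markers, among them Aif1, Csf1r, Cx3cr1 and P2ry12, were not in the table. The neuron and neuroblast list, 7 of 8 in the table, summed to 6.08 to 6.20 RPKM in ATRX KO against 56.6 to 57.8 RPKM in ATRX WT. Their part in the collagen results was not tested, and in bulk RNA a change in the number of cells of a type and in the RNA per cell cannot be told apart.

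Collagen transcripts took a larger part of the ATRX KO transcriptome. They made up 1.20%, 1.27% and 1.23% of the ATRX KO reads and 0.184%, 0.175% and 0.179% of the ATRX WT reads. The widest exact (Clopper-Pearson) 95% binomial interval, that of ATRX KO replicate 3, ran from 1.23% to 1.24%. The groups did not overlap, with means of 1.23% ± 0.0337 and 0.179% ± 0.00439 (SD, n = 3 each), a ratio of 6.88. A two-sided exact permutation test gave p = 0.1, the smallest p that 3 against 3 libraries allow. Without the most abundant collagen of each group, Col3a1 in ATRX KO and Col18a1 in ATRX WT, the shares were 0.757% ± 0.0176 and 0.0881% ± 0.00175. The processing genes made up 0.456% ± 0.00469 of the ATRX KO reads and 0.0920% ± 0.00162 of the ATRX WT reads.

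The kinds of collagen differed as well. Per length, as shares of the summed collagen RPKM, fibrillar collagens made up 53.9% ± 1.11 in ATRX KO and 9.27% ± 0.0384 in ATRX WT. Collagen VI made up 17.4% against 0.962%, and collagen IV 15.4% against 11.3%. FACIT collagens had the reverse order, 2.73% against 26.8%. In ATRX WT Col18a1, the basement membrane collagen from which endostatin is cleaved, alone made up 51.3% ± 0.244, followed by Col16a1 with 19.6% and Col9a3 with 5.01%. In ATRX KO Col3a1 led with 32.3% ± 1.02, then Col1a1 with 11.9% and Col6a1 with 9.77%, and Col18a1 made up 8.33%. These shares sum to a whole in each library, so a larger share of some genes lowers that of others.

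**Figure D2:**
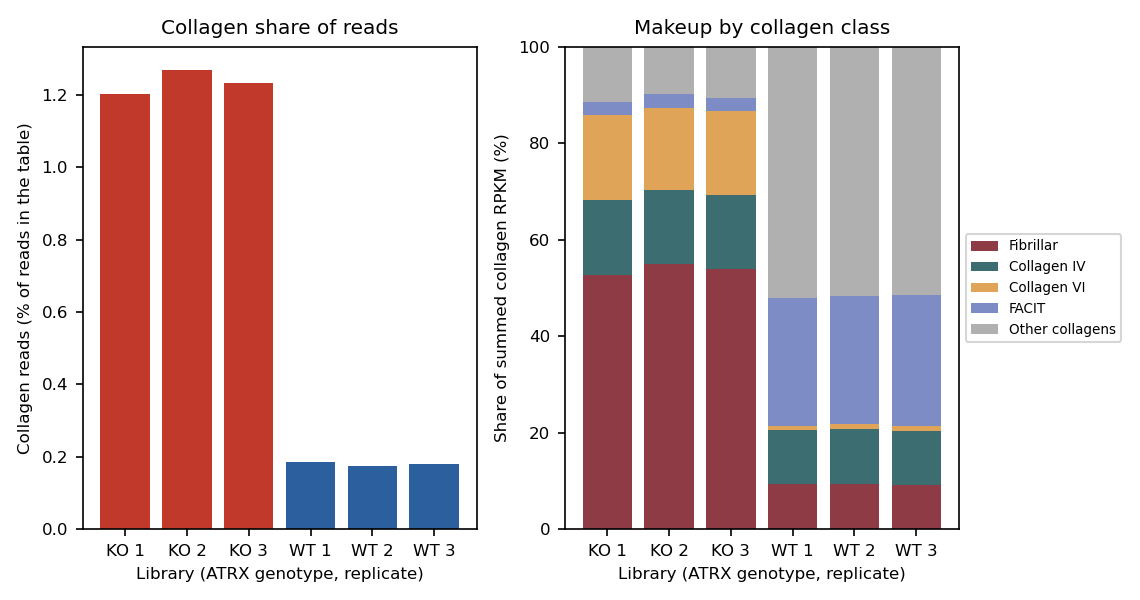
Left, percent of the reads in the table that fell on collagen genes in each library (ATRX KO red, ATRX WT blue); right, share of the summed collagen RPKM by collagen class in the same libraries. The ATRX KO bars stand between 1.20% and 1.27% and the ATRX WT bars between 0.175% and 0.184%, and the fibrillar part is the largest in ATRX KO.

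Among fibrillar collagens, Col1a1, Col3a1 and the chains of collagen V rose, Col11a1 and Col27a1 fell, and Col1a2 was under the filter. Of 7 tested, 5 rose, with a median difference of 3.99. Col3a1 (ENSMUSG00000026043.18, chr1:45311538-45349706, GENCODE M21 on GRCm38, as for all positions of genes below), the chain of the fibrillar collagen of pliable tissues, had 114560, 111791 and 83779 reads in the ATRX KO libraries and 14, 9 and 6 in those of ATRX WT. In RPKM its level was 681, 767 and 726 RPKM in ATRX KO and 0.0781, 0.0509 and 0.0383 RPKM in ATRX WT. It ranked number 1 of all tested genes by log2 fold change (log2 fold change 13.73, SE 0.216, adjusted p = 7.6e-11), with a ratio of summed reads over library sizes of 16319 (95% counting interval 11362 to 24367). By level it was number 60 of the table in ATRX KO and number 12918 in ATRX WT.

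Col1a1 (ENSMUSG00000001506.10, chr11:94936224-94953042), the main chain of collagen I, had log2 RPKM values of 8.01, 8.13 and 8.03 in ATRX KO and -1.05, -1.32 and -0.61 in ATRX WT. All ATRX KO libraries were high and close together, and the ATRX WT libraries spread more (log2 fold change 9.05, SE 0.151, adjusted p = 1e-10). Col1a2 (ENSMUSG00000029661.16, chr6:4504814-4541544), the chain with which it forms the common heterotrimer, had 139, 76 and 44 reads in the ATRX KO libraries and 14, 7 and 5 in those of ATRX WT. Its groups did not overlap, and the ratio of summed reads over library sizes was 15.2 (95% counting interval 10.1 to 23.7), but its ATRX KO level of 0.905, 0.576 and 0.424 RPKM stayed under 1 RPKM in every library. ATRX KO replicate 1 was the highest for Col1a2 and replicate 3 the lowest, an order not seen for Col1a1.

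Col5a1 and Col5a2, the chains of collagen V, which nucleates fibrils, stood closer to each other in ATRX KO than in ATRX WT. Col5a1 (ENSMUSG00000026837.15, chr2:27886425-28039514) stood at 123, 119.6 and 120.3 RPKM in ATRX KO and 8.05, 7.44 and 7.43 RPKM in ATRX WT (log2 fold change 3.99, SE 0.038, adjusted p = 6e-12). Col5a2 (ENSMUSG00000026042.16, chr1:45374321-45503282) stood at 82.4, 95.5 and 91.2 RPKM in ATRX KO and 0.0697, 0.0763 and 0.0703 RPKM in ATRX WT, with a log2 fold change of 10.28 and a ratio of summed reads of 1419 (95% counting interval 1073 to 1918). The third chain, Col5a3 (ENSMUSG00000004098.7, chr9:20770050-20815067), rose less, with log2 RPKM values of 1.43, 1.47 and 1.45 in ATRX KO and 1.08, 1.04 and 0.91 in ATRX WT (log2 fold change 0.44, SE 0.073, adjusted p = 0.00039). Of the cartilage-type collagens, Col11a1 (ENSMUSG00000027966.20, chr3:114030540-114220718) fell, at 1.64, 1.89 and 1.82 in ATRX KO and 3.06, 3.06 and 3.10 in ATRX WT on the log2 RPKM scale (log2 fold change -1.29, SE 0.068, adjusted p = 1.3e-07). Col27a1 (ENSMUSG00000045672.15, chr4:63214004-63334991) also fell, from 7.50, 7.23 and 7.11 RPKM in ATRX WT to 1.63, 1.69 and 1.62 RPKM in ATRX KO (log2 fold change -2.14). For both, the ATRX KO libraries were all below those of ATRX WT. Col2a1, the cartilage fibril chain, and Col11a2 were low in all libraries, the former with 58, 48 and 31 reads in the ATRX KO libraries and 29, 28 and 23 in those of ATRX WT and the latter with 34, 32 and 33 reads in the ATRX KO libraries and 90, 100 and 118 in those of ATRX WT.

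In collagen IV, the common chains rose steeply while Col4a6 fell. Col4a1 (ENSMUSG00000031502.11, chr8:11198423-11312826) stood at 181, 193 and 189 RPKM in ATRX KO and 13.2, 12.9 and 13.0 RPKM in ATRX WT (log2 fold change 3.85, SE 0.031, adjusted p = 3.8e-12). Col4a2 (ENSMUSG00000031503.13, chr8:11312805-11449287), its partner in nearly all basement membranes, stood at 139, 139 and 139.6 RPKM in ATRX KO and 5.98, 5.65 and 5.77 RPKM in ATRX WT (log2 fold change 4.59, SE 0.031, adjusted p = 2.2e-12). The libraries of a group were close to each other, and the groups were far apart. These genes are transcribed in opposite directions from starts that overlap by 22 bases in the annotation. Col4a5 (ENSMUSG00000031274.16, chrX:141475385-141689234) rose less, at 16.4, 19.5 and 17.4 RPKM in ATRX KO and 9.15, 9.16 and 9.02 RPKM in ATRX WT (log2 fold change 0.96, SE 0.062, adjusted p = 5.2e-07). Col4a6 (ENSMUSG00000031273.16, chrX:141165403-141474076), a chain found together with Col4a5, fell, with 133, 96 and 87 reads in the ATRX KO libraries and 1143, 1263 and 1140 in those of ATRX WT (log2 fold change -2.87, SE 0.091, adjusted p = 4.5e-09). Col4a5 and Col4a6 are also head to head, with 1308 bases between the genes (sequences before both starts are given above), and they moved in opposite directions.

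All 3 measured chains of collagen VI rose, with a median difference of 7.16. Col6a1 (ENSMUSG00000001119.7, chr10:76708792-76726168) stood at 215, 224 and 219 RPKM in ATRX KO and 2.33, 2.26 and 2.16 RPKM in ATRX WT (log2 fold change 6.61, SE 0.037, adjusted p = 1e-12). Col6a2 (ENSMUSG00000020241.13, chr10:76595762-76623630) had log2 RPKM values of 6.10, 6.23 and 6.17 in ATRX KO and -1.14, -0.95 and -0.90 in ATRX WT (log2 fold change 7.16). Col6a3 (ENSMUSG00000048126.16, chr1:90765923-90843971), the long chain that completes the trimer, had 33270, 28027 and 22210 reads in the ATRX KO libraries and 19, 15 and 13 in those of ATRX WT, a ratio of summed reads of 2711 (95% counting interval 2039 to 3690.3). No ATRX KO library of any of these chains came near an ATRX WT library.

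FACIT collagens moved in both directions. The 4 that were tested gave 1 rise, 2 falls and 1 result short of the threshold. Col19a1 (ENSMUSG00000026141.13, chr1:24261890-24587472) had 0, 0 and 0 reads in the ATRX KO libraries and 1437, 1642 and 1624 in those of ATRX WT, at least 1027-fold lower in ATRX KO against a floor of 3 reads over the group. Col9a3 (ENSMUSG00000027570.15, chr2:180597790-180622189), a chain of collagen IX on cartilage fibrils, fell, with log2 RPKM values of 0.05, 0.23 and 0.08 in ATRX KO and 3.91, 3.82 and 3.81 in ATRX WT (log2 fold change -3.73, SE 0.069, adjusted p = 1.8e-10). For both, the groups did not overlap. Col12a1 (ENSMUSG00000032332.17, chr9:79598991-79718831), which binds collagen I fibrils, was the gene that rose, with log2 RPKM values of 2.43, 2.70 and 2.56 in ATRX KO and 0.21, -0.14 and -0.04 in ATRX WT (log2 fold change 2.55). Col16a1 (ENSMUSG00000040690.15, chr4:130047840-130099283) stood at 51.7, 56.0 and 53.4 RPKM in ATRX KO and 56.9, 54.7 and 57.3 RPKM in ATRX WT and did not pass (log2 difference -0.07, adjusted p = 0.1). It was lower with scaling by the reads in the table (-0.27, adjusted p = 0.00012), after quantile normalization (-0.23, adjusted p = 0.00055) and without ATRX KO replicate 2 (-0.10, adjusted p = 0.022). Among those under the filter, Col22a1 had 5, 9 and 2 reads in the ATRX KO libraries and 116, 131 and 139 in those of ATRX WT with no overlap, and Col20a1 had 77, 63 and 58 reads in the ATRX KO libraries and 150, 138 and 106 in those of ATRX WT with log2 RPKM values that overlapped.

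All tested collagens of the other classes were higher in ATRX KO. Col18a1 (ENSMUSG00000001435.15, chr10:77052178-77166548) was abundant in both lines, at 202, 175 and 183 RPKM in ATRX KO and 152, 144 and 146 RPKM in ATRX WT (log2 fold change 0.34, SE 0.051, adjusted p = 0.0002), and its call was lost after quantile normalization (0.06, adjusted p = 0.24). Col7a1 (ENSMUSG00000025650.13, chr9:108953586-108984875), the anchoring fibril collagen of skin, stood at 24.4, 24.7 and 25.4 RPKM in ATRX KO and 0.601, 0.470 and 0.577 RPKM in ATRX WT (log2 fold change 5.51, SE 0.094, adjusted p = 1.1e-10). Col8a1 (ENSMUSG00000068196.5, chr16:57624258-57754737), a network-forming collagen of vessel walls and cornea, had 1299, 1407 and 1031 reads in the ATRX KO libraries and 1, 1 and 0 in those of ATRX WT, a ratio of summed reads of 2851 (95% counting interval 789 to 23552). Its partner chain Col8a2 was under the filter, with 45, 29 and 38 reads in the ATRX KO libraries and 4, 8 and 5 in those of ATRX WT. Of these, Col18a1 alone was well expressed in ATRX WT. The transmembrane collagen Col23a1 (ENSMUSG00000063564.13, chr11:51289920-51583918) rose by 3.99 on the log2 scale, from 0.434, 0.406 and 0.323 RPKM to 6.73, 5.54 and 6.15 RPKM. Col28a1 (ENSMUSG00000068794.7, chr6:7997808-8192617), a collagen of peripheral nerve sheath, rose from 50 to 3197 summed reads, a ratio of 97.6 (95% counting interval 73.8 to 132).

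Chains that share a trimer were not always expressed in like amounts. Most ratios did not overlap between the lines, but neither did 90.5% of all genes, so the lack of overlap alone says little about the pairs. Of the 10 pairs looked for, 8 had both chains in the table. Col1a1 exceeded Col1a2 by log2 ratios of 8.16, 8.93 and 9.26 in ATRX KO and 2.52, 3.14 and 4.17 in ATRX WT, a mean ratio of 439.9 in ATRX KO. In ATRX WT that ratio rests on 26 reads of Col1a2. Col5a1 and Col5a2 were nearly even in ATRX KO (0.58, 0.32 and 0.40) and far apart in ATRX WT (6.85, 6.61 and 6.72), where Col5a2 had 49 reads over the libraries. Col6a1 over Col6a3 showed the same pattern, at 1.08, 1.18 and 1.15 in ATRX KO and 5.47, 5.83 and 5.91 in ATRX WT. Col6a1 over Col6a2 changed less, at 1.65, 1.58 and 1.61 and 2.36, 2.13 and 2.01. For Col4a1 over Col4a2 the log2 ratios were 0.38, 0.47 and 0.44 in ATRX KO and 1.14, 1.19 and 1.17 in ATRX WT, so the chains stood nearer to each other in ATRX KO. For Col4a5 over Col4a6 they were 4.61, 5.12 and 4.77 and 1.00, 0.97 and 1.06, the opposite order. Col11a1 over Col11a2 gave 3.89, 4.01 and 3.58 and 4.25, 4.21 and 3.98, which overlapped. In ATRX KO Col8a1 exceeded Col8a2 by 4.56, 5.29 and 4.48, and no ratio is given for ATRX WT, where Col8a1 had 2 reads. These ratios are descriptions of RPKM values with the authors' prior count and were not tested. That count pulls ratios of low genes towards the inverse of the ratio of their lengths.

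**Figure D3:**
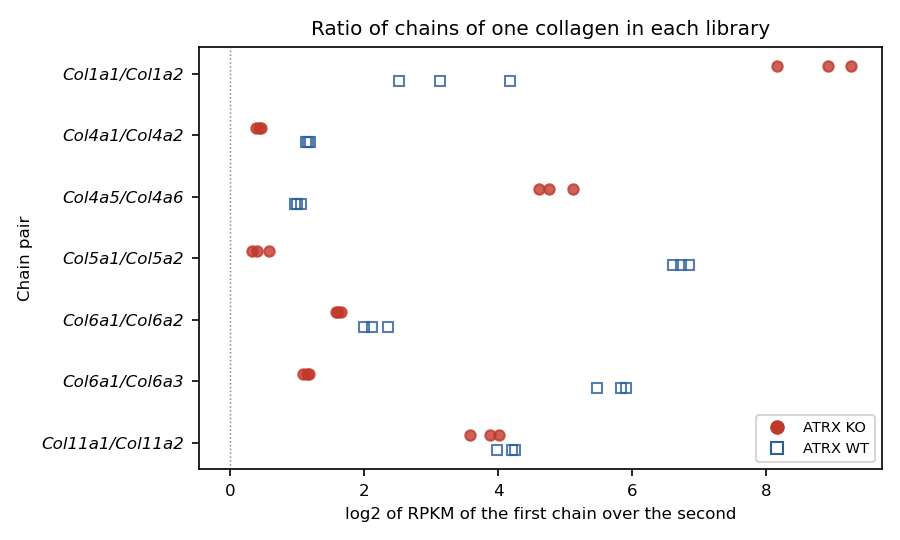
Log2 of the RPKM of the first chain over the second, for 7 pairs of chains of the same collagen, in each ATRX KO library (filled circles) and each ATRX WT library (open squares). The Col5a1/Col5a2 and Col6a1/Col6a3 pairs lie between 0 and 2 in ATRX KO and above 5 in ATRX WT, while Col1a1/Col1a2 lies above 8 in ATRX KO.

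Of the genes that modify and fold collagen chains, Serpinh1 changed far more than the enzymes. Serpinh1 (ENSMUSG00000070436.12, chr7:99345376-99353239) stood at 1248, 1190.2 and 1217 RPKM in ATRX KO and 5.90, 5.89 and 6.40 RPKM in ATRX WT (log2 fold change 7.65, SE 0.038, adjusted p = 1e-12). It was number 30 of the table by level in ATRX KO and number 8360 in ATRX WT. The catalytic subunits of prolyl 4-hydroxylase, which stabilise the helix, rose where they were well expressed. P4ha1 (ENSMUSG00000019916.14, chr10:59323296-59373304) stood at 98.9, 109 and 103 RPKM in ATRX KO and 32.9, 30.0 and 30.1 RPKM in ATRX WT (log2 fold change 1.74, SE 0.046). P4ha2 (ENSMUSG00000018906.14, chr11:54100095-54131665) rose by 2.79, from 4.48, 4.06 and 3.99 RPKM to 28.9, 28.8 and 29.1 RPKM. P4ha3 was under the filter, with 37, 45 and 19 reads in the ATRX KO libraries and 53, 57 and 66 in those of ATRX WT, and its log2 RPKM values overlapped.

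The lysyl hydroxylases, which prepare chains for cross-links and sugars, went separate ways. Plod2 (ENSMUSG00000032374.14, chr9:92542223-92608428), which acts on the telopeptides, rose, at 59.9, 63.4 and 63.7 RPKM in ATRX KO and 20.7, 20.3 and 18.2 RPKM in ATRX WT (log2 fold change 1.66, SE 0.051, adjusted p = 3.4e-09). Plod1 (ENSMUSG00000019055.15, chr4:147909753-147936767), which acts on the helix, was at 21.8, 21.3 and 20.7 RPKM in ATRX KO and 22.1, 21.8 and 22.4 RPKM in ATRX WT and did not pass (log2 difference -0.06, adjusted p = 0.12), although its groups did not overlap. It was lower with scaling by the reads in the table (-0.25, adjusted p = 5.4e-05) and after quantile normalization (-0.16, adjusted p = 0.0012). Plod3 (ENSMUSG00000004846.10, chr5:136987019-136996648) fell slightly, with log2 RPKM values of 5.76, 5.60 and 5.64 in ATRX KO and 5.79, 5.75 and 5.80 in ATRX WT (log2 fold change -0.11, SE 0.041, adjusted p = 0.028), with groups that overlapped. That call was lost without the mean-variance trend (adjusted p = 0.062), and without ATRX KO replicate 2 (0.088), ATRX KO replicate 3 (0.084), ATRX WT replicate 1 (0.083) or ATRX WT replicate 3 (0.088). Colgalt1 (ENSMUSG00000034807.9, chr8:71610998-71624911), which adds galactose to hydroxylysine, stood at 111, 107 and 112 RPKM in ATRX KO and 54.4, 55.0 and 55.9 RPKM in ATRX WT (log2 fold change 1.00, SE 0.028). Crtap (ENSMUSG00000032431.6, chr9:114375134-114390675), the partner of prolyl 3-hydroxylase, stood at 68.5, 67.0 and 70.4 RPKM in ATRX KO and 28.5, 28.7 and 29.6 RPKM in ATRX WT (log2 fold change 1.25, SE 0.030). For Plod2, Colgalt1 and Crtap every ATRX KO library lay above every ATRX WT library.

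Outside the cell, both trimming genes among the members rose, by unequal amounts. Bmp1 (ENSMUSG00000022098.10, chr14:70474558-70520234), the protease that removes the C-propeptide, stood at 51.7, 47.3 and 49.0 RPKM in ATRX KO and 27.7, 26.9 and 27.9 RPKM in ATRX WT (log2 fold change 0.84, SE 0.038, adjusted p = 4.1e-08). Pcolce (ENSMUSG00000029718.14, chr5:137605103-137613784), which enhances that cleavage, stood at 89.1, 96.2 and 90.2 RPKM in ATRX KO and 3.19, 3.02 and 3.10 RPKM in ATRX WT (log2 fold change 4.89, SE 0.041, adjusted p = 4e-12). Of the lysyl oxidases, Loxl2 and Loxl3 were the most abundant in ATRX KO, and Lox itself stayed low. Loxl3 (ENSMUSG00000000693.10, chr6:83034173-83052562) had log2 RPKM values of 3.73, 3.83 and 3.78 in ATRX KO and 1.60, 1.50 and 1.61 in ATRX WT (log2 fold change 2.21). Loxl2 (ENSMUSG00000034205.16, chr14:69609068-69695834), known for cross-linking collagen IV, had 3.15, 3.47 and 3.24 in ATRX KO and 1.96, 1.72 and 1.78 in ATRX WT (log2 fold change 1.46). Loxl1 (ENSMUSG00000032334.10, chr9:58287738-58313186), which acts on elastin, had 194, 158 and 144 reads in the ATRX KO libraries and 0, 2 and 1 in those of ATRX WT, a ratio of summed reads of 252 (95% counting interval 85.8 to 1228). All of these were higher in every ATRX KO library. Lox had 50, 67 and 47 reads in the ATRX KO libraries and 4, 2 and 3 in those of ATRX WT, a ratio of 27.8 (95% counting interval 14.3 to 61.9), and Loxl4 56, 41 and 44 reads in the ATRX KO libraries and 12, 15 and 17 in those of ATRX WT, a ratio of 4.89 (95% counting interval 3.46 to 7.03). Both were under the filter, and their groups did not overlap.

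The further genes of the pathway, listed by role rather than by how they moved, moved in both directions. Of 31 symbols for folding, export and trimming, 20 were tested, with 12 rises, 6 falls, 2 that did not pass and a median difference of 0.54. For this list and those that follow, 43.6% of all tested genes rose and 45.9% fell. Fkbp10, a prolyl isomerase of procollagen, rose by 4.01 and Pcolce2, a relative of Pcolce, by 2.26. Colgalt2, the paralogue of Colgalt1, had 22, 11 and 6 reads in the ATRX KO libraries and 853, 894 and 844 in those of ATRX WT (log2 fold change -5.43, SE 0.255, adjusted p = 5.8e-08), and Xylt1, which starts the sugar chains of proteoglycans, changed by -2.97. The prolyl 3-hydroxylase P3h2, for which Leprel1 is an older name, fell, at 1.47, 1.34 and 1.29 in ATRX KO and 2.24, 2.22 and 2.28 in ATRX WT on the log2 RPKM scale (log2 fold change -0.88, SE 0.066, adjusted p = 1.4e-06), whereas P3h1 rose by 1.02 and P3h3 by 0.81. Adamts14, a further trimming gene, fell from 60.1, 58.4 and 61.1 RPKM in ATRX WT to 37.6, 35.3 and 35.7 RPKM in ATRX KO. Adamts2 and Adamts3 of the same list were under the filter and differed in opposite directions. Adamts2 had 91, 90 and 59 reads in the ATRX KO libraries and 2, 1 and 2 in those of ATRX WT. Adamts3 had 0, 2 and 0 reads in the ATRX KO libraries and 243, 269 and 287 in those of ATRX WT. These last genes were named after their values were seen. Of 11 receptors and uptake genes 8 were tested, with 5 rises, 2 falls, 1 without a call and a median of 0.58. Ddr1 and Ddr2, receptor kinases that bind collagen, moved apart, the former at 16.8, 16.6 and 15.7 RPKM in ATRX KO and 57.6, 55.4 and 58.2 RPKM in ATRX WT and the latter at 73.4, 77.5 and 75.4 RPKM in ATRX KO and 24.3, 24.0 and 23.3 RPKM in ATRX WT (log2 fold changes -1.80 and 1.66). Cd44, a receptor for hyaluronan and collagen, rose by 2.07, and Itga1, a collagen-binding integrin, changed by -0.52. Of 18 proteoglycans and organisers that bind fibrils 13 were tested, with 12 rises and 1 fall and a median of 6.10, but the ATRX WT mean was log2 RPKM 0 or more for 6 of them. Dcn and Lum of this list also stand among the fibroblast markers above. Postn, a matrix protein of fibrous tissue, and Bgn, a small proteoglycan, led the rises (11.77 and 10.30), and the fall was Tnc, a matrix glycoprotein of glioma and development, at 230.1, 251 and 239 RPKM in ATRX KO and 287, 293 and 299 RPKM in ATRX WT (log2 fold change -0.29, SE 0.037, adjusted p = 5.9e-05).

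**Figure D4:**
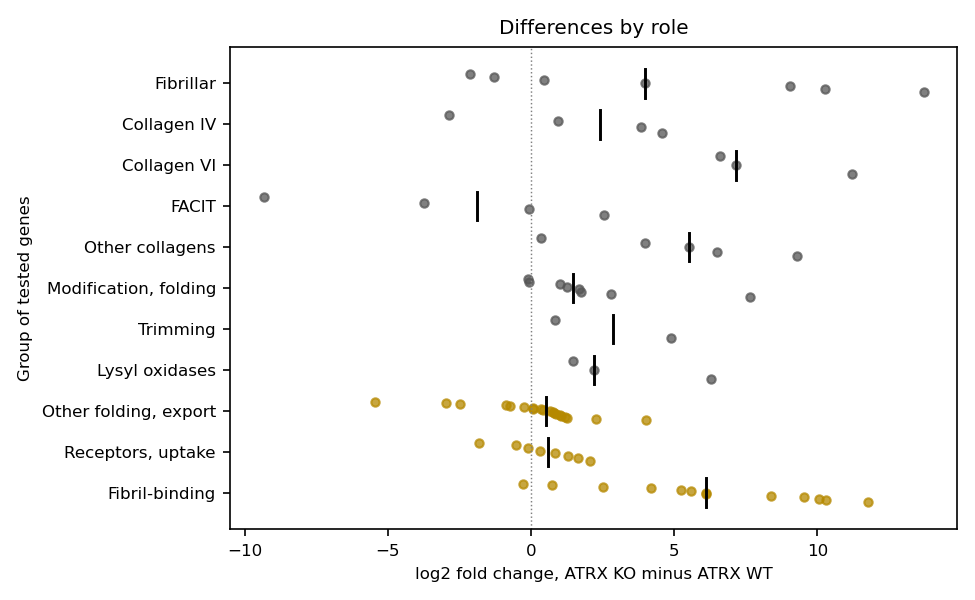
Log2 fold change (ATRX KO minus ATRX WT) of each tested gene, by role, with the median of each group as a black bar; grey points are the members and ochre points the genes of the further lists. The tested collagen VI, other collagen, trimming and lysyl oxidase members all lie above 0. FACIT collagens and the further folding, export and trimming genes lie on both sides.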

How the data were processed

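RNA was sequenced from 3 ATRX KO and 3 ATRX WT libraries made with a stranded mRNA kit, per the labels' protocols. Expression was deposited by the authors as log2 RPKM, in 1 table of 6 columns. The authors aligned and counted reads with tools that the submitters' processing notes list as STAR 2.5.3a and HTSeq 0.11.2, beside edgeR 3.20.9, Trim Galore and FastQC. The notes name mm9 and mm10 without a role, and the filter on low genes and the strand setting of the counting are not given in the sources used here. Positions come from GENCODE M21 by gene symbol. The deposited log2 values are spaced as whole reads plus a prior count would be, and reads were recovered from them for 100% of genes within 0.0001 reads, a method checked on simulated data. The library sizes of the authors, recovered with the reads, were 0.932 to 0.935 times the reads of an ATRX KO library and about 1.07 times those of an ATRX WT library. Genes that reached log2 RPKM 0 in 3 or more of the 6 libraries entered a linear model in limma 3.58.1 under R 4.3.3 (trended empirical Bayes moderation). P-values are two-sided and Benjamini-Hochberg adjusted over every gene fitted. The fit was tested on simulated data in which a small part of the genes, all well counted, changed. That setting differs from these data, where most genes passed and many members were near absence in one group. Where a group had few reads, a ratio of reads summed over libraries and divided by summed library sizes is given with its exact interval. Such intervals and floors reflect counting error alone. RPKM values are deposited values taken out of log2, and include the prior count of the authors. The shares of summed RPKM were computed from reads without it. The members and lists were chosen with earlier results of these data known. All members were described, and from each further list the 2 largest rises and falls were named. The result of 1 marker list is not reported here. Alternatives were other scalings, filters, a pseudocount of 1 RPKM, no trend, a replicate block and each library left out, and limma's voom on the recovered reads was added after the data were seen. edgeR and DESeq2 were not run, as the deposited values are on a log scale.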

Additional observations from a re-analysis of the deposited data

How the results depend on the processing

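None of the 36 tested members reversed direction under the alternatives run for it, and the members under the filter were compared with no filter only. Of the tested members 32 kept their side of the threshold in all of their alternatives, and the exceptions were Col16a1, Col18a1, Plod1 and Plod3, whose values stand in the report. The count of processing genes that fell, 1, was 2 with scaling by the reads in the table, 2 after quantile normalization, 0 without the trend and 0 to 1 with each library left out. With a library left out, 28 members rose and 5 to 6 fell. Scaling by the reads in the table moved the median of all genes by -0.20 (log2) and gave 4388 rises and 6689 falls over all genes in place of 5321 and 5604, but 28 members still rose and 8 fell. With a pseudocount of 1 RPKM the fold changes of low genes shrank, Col3a1 to 9.42 and Col8a1 to 3.37, so folds from near absence depend on that choice. In voom on the recovered reads 28 members rose and 6 fell. With the replicate number as a block 28 members rose and 6 fell (5287 and 5564 of all genes), and the block changed no member's call. Same-numbered libraries did not deviate together across all genes, with correlations of -0.05, 0.05 and -0.04 for replicates 1 to 3. Pairs of different numbers ranged from -0.09 to 0.12. A correlation over all genes cannot exclude a batch that same-numbered libraries share in some genes. The alternatives with edgeR and DESeq2 were not run. The difference in the collagen share of reads was 1.06 percentage points, and 1.04 to 1.07 with each library left out.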

Other observations

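The genes beside the collagen and processing genes that rose were looked at as well. For each tested member that rose, the nearest gene of the table on each side was taken from GENCODE M21, leaving out other members and genes under the filter. Of 49 such neighbours 22 rose and 25 fell, 2 did not pass, and the median difference was -0.11, beside 43.6% rising and 45.9% falling among all tested genes. Members were each other's nearest measured gene in 4 places. Col3a1 and Col5a2 lie 24614 bases apart on chromosome 1, Col6a2 and Col6a1 85161 bases apart on chromosome 10, and both genes of each pair rose. Col4a1 and Col4a2 overlap at their starts on chromosome 8 and both rose, while Col4a6 fell and Col4a5 rose on chromosome X. This search was chosen after the data were seen, and the distances ignore genes that are not in the table.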
